A study of Rattus norvegicus with 6 samples.

Results

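The 9 genes described here are NLRC5 and 8 genes of MHC class I antigen presentation, PSMB8, PSMB9, PSMB10, TAP1, TAP2, TAPBP, ERAP1 and B2M, out of 26319 genes in the table. They were chosen by symbol, and each symbol was carried by 1 Ensembl ID. The set was built around NLRC5 because of its own values: in the authors' deposited tables its log2 fold change was -1.21 (adjusted p = 0.0123) in AT1R Tg vehicle relative to WT and 2.24 for AT1R Tg AC1903 against AT1R Tg vehicle (adjusted p = 7.58e-05). Those values are the reason for its choice, and NLRC5 is therefore described without a test in both comparisons. The same holds for AT1R Tg AC1903 against WT, which follows from them. The question put to the data was whether the 8 other genes followed NLRC5 across the groups.

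Polyadenylated RNA was sequenced from glomeruli, the capillary tufts that filter blood, isolated from 6 Sprague Dawley rats, 2 in each of 3 groups. The AT1R Tg AC1903 group was transgenic for AT1R, a receptor for angiotensin II, and received AC1903, a small-molecule inhibitor of the cation channel TRPC5, at 23.0 and 20.4 weeks of age. The AT1R Tg vehicle group carried the same transgene and received vehicle, at 20.4 and 17.4 weeks. The WT group had no transgene and is labelled as vehicle-treated too, at 20.4 and 21.9 weeks. The sources used here give no dose, duration, sex, transgene promoter or receptor sequence, so no gene in the table checks the genotype. Replicate ages differed within each group, so the 2 samples of a group came from different rats.

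Total expected counts per library were 12325515 and 12637582 in AT1R Tg AC1903, 13464600 and 14230770 in AT1R Tg vehicle, against 25045081 and 36026772 in WT, so depth differed with genotype. The tissue label was checked against marker lists: 12 podocyte markers summed to 9601 to 17970 CPM, counts scaled to one common library size, over the 6 libraries and 16 IDs of glomerular endothelial markers to 7134 to 10060 CPM. The 11 proximal tubule markers summed to 5358 and 5311 CPM in AT1R Tg AC1903, 5245 and 10230 CPM in AT1R Tg vehicle, against 3613 and 2260 CPM in WT. Tubular RNA was thus present in every library and lower in both WT libraries than in the transgenic ones, with AT1R Tg vehicle replicate 2 highest, and its part in the results was not tested. No member had a count of 0 in any library, and all 9 passed the filter on low counts.

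MHC class I molecules show peptides of the cell's own proteins to cytotoxic T cells. NLRC5, a protein of the NOD-like receptor family, works as the class I transactivator: it has no DNA-binding domain of its own and acts through RFX, CREB/ATF and NF-Y factors bound at class I promoters, as its relative CIITA does for class II. Interferon gamma induces NLRC5 as well as the immunoproteasome subunits that replace the constitutive catalytic subunits, the TAP transporter and the light chain B2M.

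The promoters are described because these genes are read out here as a set. A motif search does not test whether the genes followed NLRC5. The RefSeq promoter table (rat build GRCr8, 250 bases before to 50 after the start) held 7 of the 9 genes, and NLRC5 and ERAP1 were not matched. The core of the interferon-stimulated response element, GAAA followed after any 2 bases by a second GAAA, was searched on both strands after the sequences had been seen, with overlapping matches counted. It occurred in 6 of the 7 windows, against 3.92% of all 33469 promoters of the same length. The 6 stretches with the matches are given 5′ to 3′ on the gene's strand, with the matched letters in capitals.
PSMB8 chr20:4657012-4657060, minus strand: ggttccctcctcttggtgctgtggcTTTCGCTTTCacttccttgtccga
PSMB10 chr19:50743275-50743390, minus strand: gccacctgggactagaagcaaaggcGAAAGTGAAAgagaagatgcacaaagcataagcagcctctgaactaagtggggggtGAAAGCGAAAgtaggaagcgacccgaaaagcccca
TAP1 chr20:4668630-4668689, minus strand: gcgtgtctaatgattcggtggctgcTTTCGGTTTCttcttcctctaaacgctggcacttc
TAP2 chr20:4652303-4652362, minus strand: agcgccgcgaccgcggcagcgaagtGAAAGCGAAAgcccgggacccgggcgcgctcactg
TAPBP chr20:4967863-4967928, minus strand: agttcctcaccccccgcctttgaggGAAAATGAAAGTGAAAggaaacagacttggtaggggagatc
B2M chr3:129549155-129549214, plus strand: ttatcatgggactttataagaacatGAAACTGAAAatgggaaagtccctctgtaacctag
PSMB10 and TAPBP each held 2 matches, which overlap in TAPBP, and in PSMB8 and TAP1 the match lies on the strand opposite to the gene. The seventh window, of PSMB9, held none, and PSMB9 starts next to TAP1 and points away from it, so that their windows overlap. A fixed form of the NF-kappa-B site, with no variable letter, was found on either strand in B2M and TAP1, against 0.111% of all promoters. Other forms of that site were not searched, so this share does not give how common NF-kappa-B sites are. The gamma-activated site, TTC and GAA around any 3 bases, was found in PSMB8 alone, against 8.87% of all promoters. CCAAT, the letters NF-Y reads, occurred in B2M, PSMB8 and PSMB9, against 37.5% of all promoters. A match describes the sequence and does not show that a factor was bound.

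NLRC5 (ENSRNOG00000048222) stood at 18.7 and 17.0 CPM in AT1R Tg AC1903 (225 and 212 counts), at 3.33 and 4.23 CPM in AT1R Tg vehicle (47 and 52 counts) and at 7.72 and 10 CPM in WT (215 and 369 counts). The 3 groups did not overlap, with the vehicle group lowest and the AC1903 group highest. Its fitted log2 change was -1.23 with SE 0.28 for AT1R Tg vehicle relative to WT, a 0.426-fold level, and 2.24 with SE 0.28 for AT1R Tg AC1903 against AT1R Tg vehicle, a 4.72-fold level.

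**Figure D1:**
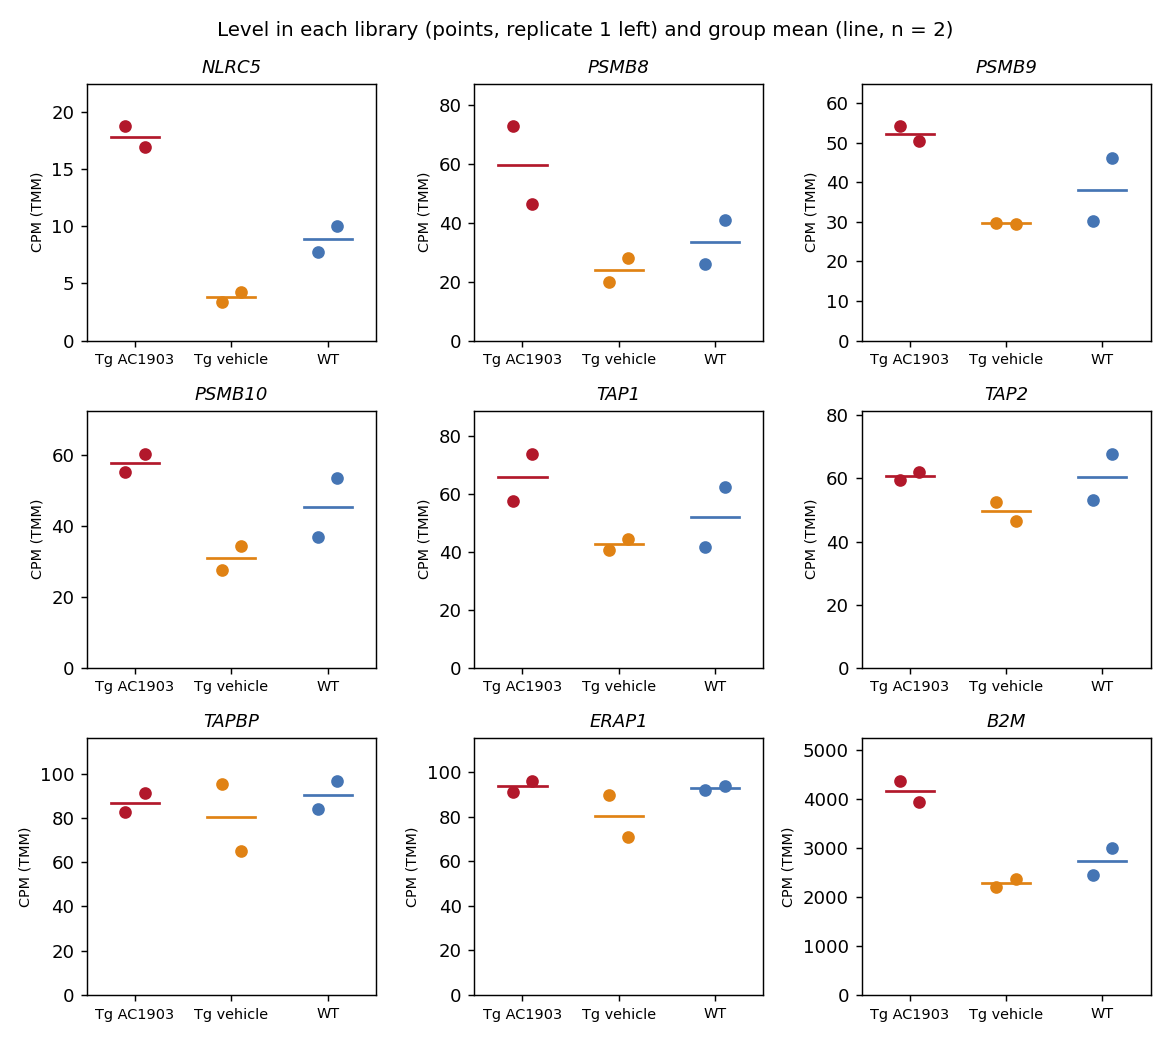
TMM-normalised CPM (vertical axes, from 0) of the 9 genes in each library, as points, with the mean of the 2 libraries of a group as a line; AT1R Tg AC1903, AT1R Tg vehicle and WT run from left to right. NLRC5, PSMB9, PSMB10 and B2M have 3 groups that do not overlap, with vehicle lowest and AC1903 highest, while the 3 groups of TAPBP overlap.

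The 3 immunoproteasome subunits were higher in both AC1903 libraries than in any other library. PSMB8 (ENSRNOG00000000456), the chymotrypsin-like immunosubunit LMP7, stood at 72.7 and 46.3 CPM in AT1R Tg AC1903, 20.0 and 27.9 CPM in AT1R Tg vehicle, against 25.9 and 41.1 CPM in WT. The vehicle and WT libraries overlapped. PSMB9 (ENSRNOG00000000459), the immunosubunit LMP2, stood at 54.2 and 50.4 CPM in AT1R Tg AC1903, 29.8 and 29.6 CPM in AT1R Tg vehicle, against 30.2 and 46.1 CPM in WT. Its 2 vehicle libraries were nearly equal and WT replicate 1 was barely above them. PSMB10 (ENSRNOG00000019494), the trypsin-like immunosubunit MECL-1, stood at 55.2 and 60.5 CPM in AT1R Tg AC1903, 27.7 and 34.3 CPM in AT1R Tg vehicle, against 37.0 and 53.7 CPM in WT, with no overlap between the groups.

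The constitutive subunits that these proteins replace did not share that order. PSMB5, the counterpart of PSMB8, stood at 58.4 and 56.0 CPM in AT1R Tg AC1903, 75.4 and 78.4 CPM in AT1R Tg vehicle, against 65.0 and 73.3 CPM in WT, so that the AC1903 group was the lowest and the vehicle group the highest. Within each library the PSMB8 to PSMB5 ratio, with the WT mean set to 1, was 2.60 and 1.73 in AT1R Tg AC1903, 0.552 and 0.743 in AT1R Tg vehicle, against 0.830 and 1.17 in WT. The PSMB9 to PSMB6 ratio was 1.78 and 1.85 in AT1R Tg AC1903, 0.791 and 0.902 in AT1R Tg vehicle, against 0.896 and 1.10 in WT, with the 2 IDs of PSMB6 summed. The PSMB10 to PSMB7 ratio was 1.42 and 1.55 in AT1R Tg AC1903, 0.569 and 0.792 in AT1R Tg vehicle, against 0.929 and 1.07 in WT. All 3 ratios were highest in the AC1903 libraries, and for PSMB9 to PSMB6 the vehicle and WT libraries overlapped.

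**Figure D2:**
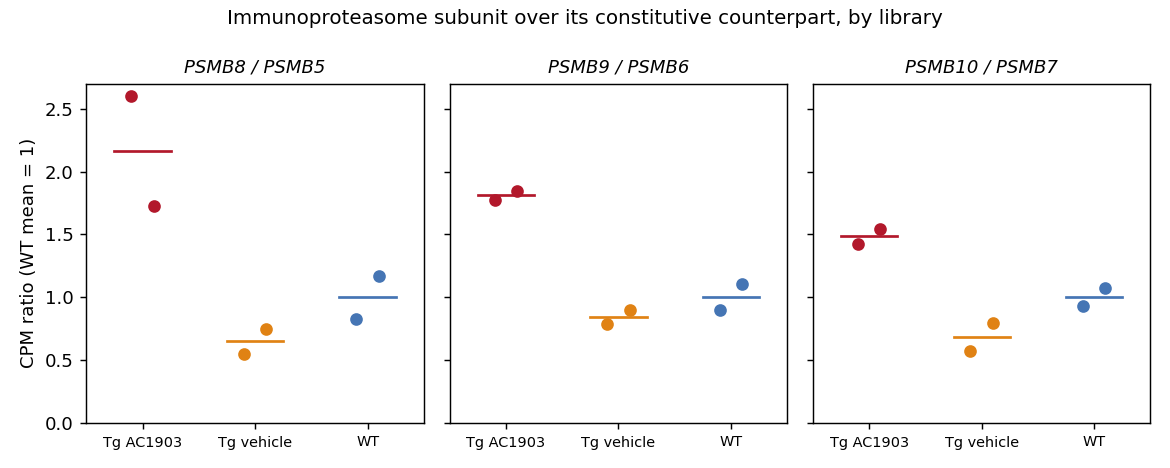
Ratio of an immunoproteasome subunit's CPM to that of its constitutive counterpart (vertical axis, WT mean = 1, from 0) in each library, as points, with group means as lines; AT1R Tg AC1903, AT1R Tg vehicle and WT run from left to right. The AC1903 libraries lie between 1.42 and 2.60 in all 3 panels and every vehicle and WT library lies at or under 1.17.

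B2M (ENSRNOG00000017123), beta-2-microglobulin, the light chain that every class I molecule needs at the cell surface, had the pattern of NLRC5 at a smaller size. It stood at 4380 and 3950 CPM in AT1R Tg AC1903, 2210 and 2371 CPM in AT1R Tg vehicle, against 2462 and 3005 CPM in WT. The groups did not overlap, and WT replicate 1 was close to the vehicle libraries. TAP1 (ENSRNOG00000000457), one chain of the transporter that carries peptides into the endoplasmic reticulum, stood at 57.6 and 73.9 CPM in AT1R Tg AC1903, 40.7 and 44.5 CPM in AT1R Tg vehicle, against 41.8 and 62.4 CPM in WT. The AC1903 and vehicle libraries did not overlap, while each of these groups overlapped with WT. TAP2 (ENSRNOG00000000455), the other chain, stood at 59.4 and 62.0 CPM in AT1R Tg AC1903, 52.4 and 46.6 CPM in AT1R Tg vehicle, against 53.3 and 67.9 CPM in WT, so that the vehicle group was lowest and the AC1903 libraries lay between the 2 WT libraries.

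The peptide-trimming and loading genes had the smallest fitted change of the 8 between AT1R Tg AC1903 and AT1R Tg vehicle. ERAP1 (ENSRNOG00000009997), the aminopeptidase that trims peptides in the endoplasmic reticulum, stood at 91.4 and 96.2 CPM in AT1R Tg AC1903, 90.02 and 71.1 CPM in AT1R Tg vehicle, against 92.1 and 94.1 CPM in WT. Vehicle replicate 2 alone was clearly lower. TAPBP (ENSRNOG00000029500), tapasin, which holds class I molecules at the transporter, stood at 82.5 and 91.3 CPM in AT1R Tg AC1903, 95.4 and 65.0 CPM in AT1R Tg vehicle, against 83.8 and 96.7 CPM in WT. One vehicle library was the lowest of the 6 and the other was the second highest, so no group stood apart.

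**Figure D3:**
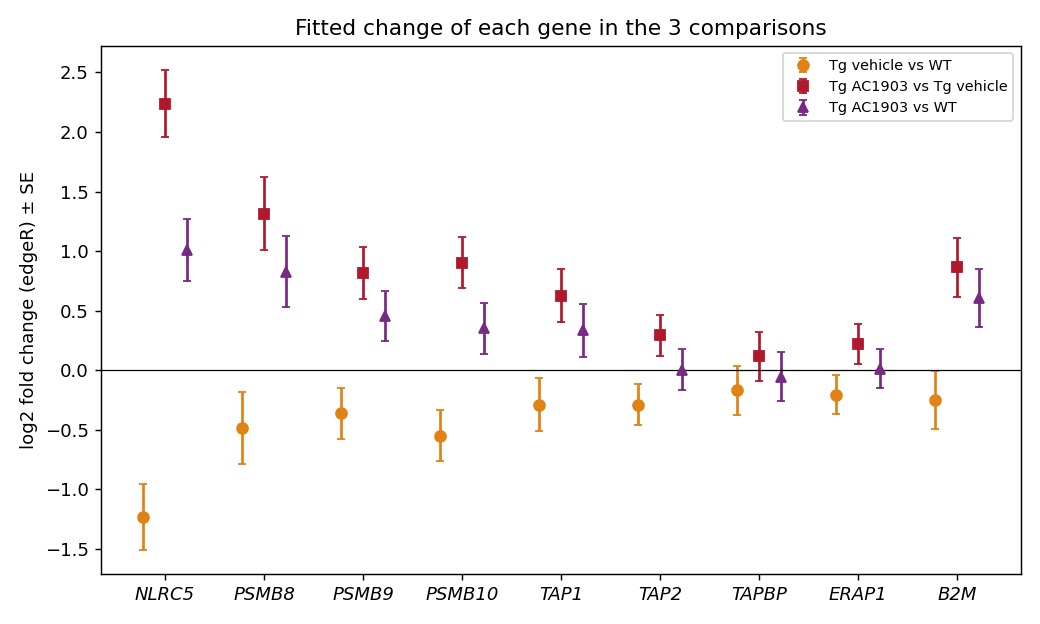
Fitted log2 fold change (vertical axis) of each gene with its standard error as bars, from edgeR on all 6 libraries, for AT1R Tg vehicle against WT (circles), AT1R Tg AC1903 against AT1R Tg vehicle (squares) and AT1R Tg AC1903 against WT (triangles). All circles lie under 0 and all squares above 0, with NLRC5 the farthest out, and the first 2 comparisons share the vehicle libraries.

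AT1R Tg vehicle was first compared with WT, which asks how transgenic glomeruli differ. All 8 presentation genes had a log2 change below 0, where 53.4% of the 13426 genes tested did. Their changes ran from -0.55 with SE 0.21 for PSMB10 to -0.17 with SE 0.20 for TAPBP, with a median of -0.29 beside -0.029 over all genes tested. None of the 8 passed an adjusted p of 0.05 in edgeR's quasi-likelihood test, which 0.0745% of all genes did. Of the 8, PSMB10 was among the 11.9% of genes below 0.05 before adjustment, and none passed in DESeq2, which called 4.13% of genes. For 5 of the 8 genes the vehicle libraries lay wholly below the WT libraries, against 23.4% of all genes. For 0 of the 8 was the difference of the group means larger than the larger difference between 2 libraries of a group, against 30.1% of all genes. WT replicate 2 was above WT replicate 1 for all 9 genes, by 0.66 log2 units for PSMB8 and 0.61 for PSMB9. Without WT replicate 2 the median change was -0.11 and TAP1 stood at 0.026, and without WT replicate 1 the median was -0.51.

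AT1R Tg AC1903 was set against AT1R Tg vehicle to ask what the inhibitor changes in transgenic glomeruli. All 8 presentation genes had a log2 change above 0, where 47.9% of all genes did, with a median of 0.72 beside -0.019 over all genes tested. The changes were 1.32 with SE 0.30 for PSMB8, 0.90 with SE 0.22 for PSMB10, 0.86 with SE 0.25 for B2M and 0.82 with SE 0.22 for PSMB9. TAP1 followed at 0.63 with SE 0.22, and TAP2, ERAP1 and TAPBP stood at 0.29, 0.22 and 0.12, each with an SE of 0.17 to 0.21. The AC1903 libraries lay wholly above the vehicle libraries for 7 of the 8, TAPBP being the exception, against 19.9% of all genes. The difference of means exceeded the larger within-group difference for 6 of the 8, against 25.7% of all genes. In edgeR 0 of the 13426 genes (0%) were called at an adjusted p of 0.05, and 1090 (8.12%) were below 0.05 before adjustment, 5 of the 8 among them. DESeq2 called 0.499% of genes, with PSMB8 and B2M of the 8 among them. The authors' deposited table called 46 genes, 0.378% of those in it, with PSMB8 (adjusted p = 0.00947) and B2M (adjusted p = 0.00965) among them. Both comparisons that chose NLRC5 contain the vehicle libraries, so nothing is read from the members' shares in them.

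AT1R Tg AC1903 was also set against WT. These changes follow from those of the other comparisons, which chose NLRC5, so NLRC5 is described here without a test too. None of the 8 presentation genes passed in edgeR, which called 0.0372% of genes. Before adjustment 11.1% of genes were below 0.05, with PSMB8 and B2M among them. The log2 change of NLRC5 was 1.01 with SE 0.26. Of the 8, PSMB8 had the largest change at 0.83 with SE 0.30 (edgeR adjusted p = 0.398). B2M followed at 0.61 with SE 0.24 (edgeR adjusted p = 0.428). In DESeq2, which called 1.35% of genes, B2M passed (adjusted p = 0.0333). PSMB9, PSMB10 and TAP1 stood at 0.45, 0.35 and 0.33, and TAP2, ERAP1 and TAPBP stood at 0.0022, 0.011 and -0.055. The 7 of 8 above 0 stand beside 50.2% of all genes. The AC1903 libraries lay wholly above WT for PSMB8, PSMB9, PSMB10 and B2M, against 24.2% of all genes, and the difference of means exceeded the larger within-group difference for PSMB8 and B2M, against 33.0%. The median of the 8 was 0.34 beside 0.0019 over all genes, and it was 0.087 without WT replicate 1 and 0.65 without WT replicate 2.

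Across the 3 groups, PSMB9, PSMB10 and B2M had all vehicle libraries below all WT libraries and all WT libraries below all AC1903 libraries. These were 3 of the 8 presentation genes, and the order was found in 302 genes, 2.25% of those tested. The other 5 presentation genes did not have it. NLRC5 had this order too, but it was chosen for values that enter the order and is not counted. The vehicle libraries are part of the order, so nothing is read from the share.

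Likeness to NLRC5 was also read over single libraries, as a Pearson correlation of log2 CPM with NLRC5 among 9739 other genes that had a symbol and averaged at least 5 CPM. The 6 points come from 3 groups of 2, differ in depth with genotype and include the values for which NLRC5 was chosen, so the correlations describe these libraries only. B2M (r = 0.952) was in place 33, PSMB10 (0.947) in place 37, PSMB9 (0.916) in place 94 and PSMB8 (0.914) in place 104. TAP1 (0.824) was in place 371, TAP2 (0.721) in place 799, ERAP1 (0.577) in place 1500 and TAPBP (0.245) in place 3223. Over all the genes the median r was -0.0352 and the 90th percentile 0.676. The 10 genes most like NLRC5 were IRF1, SKAP2, TBL1Y, MAGI3, SP110, INPP5D, SCAF4, RNF213, DENND3 and SLFN12, with r between 0.972 and 0.995. IRF1, a transcription factor of the interferon response, led this order and stood at 73.9 and 74.2 CPM in AT1R Tg AC1903, 49.0 and 50.7 CPM in AT1R Tg vehicle, against 60.3 and 65.9 CPM in WT.

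**Figure D4:**
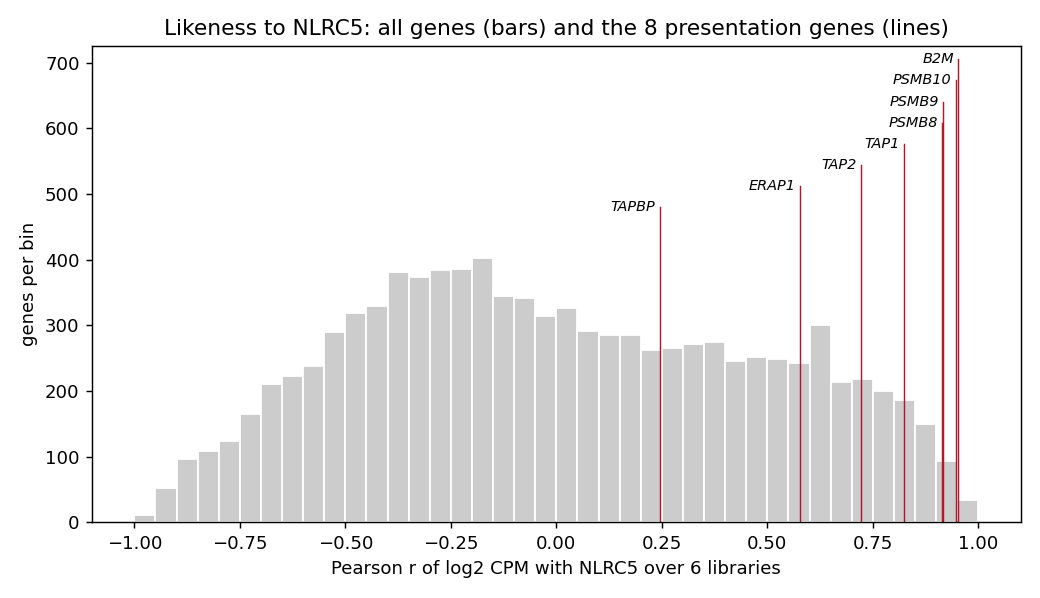
Number of genes (vertical axis) by Pearson r of log2 CPM with NLRC5 over the 6 libraries (horizontal axis), with lines at the r of the 8 presentation genes; line heights only separate the names. B2M and the 3 immunoproteasome subunits lie above 0.9, and TAPBP lies at 0.245.

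The heavy chains that B2M pairs with are given for 2 IDs, with a limit: the authors' tables give each of these IDs different human HLA symbols in the 2 comparisons, and rat class I genes are near-identical copies between which RSEM divides reads. ENSRNOG00000042905 (HLA-C or HLA-E) stood at 398.9 and 368.9 CPM in AT1R Tg AC1903, 287 and 341.9 CPM in AT1R Tg vehicle, against 336 and 466.4 CPM in WT, with the highest value in WT. ENSRNOG00000045924 (HLA-B or HLA-G) stood at 46.9 and 12.9 CPM in AT1R Tg AC1903, 5.87 and 9.44 CPM in AT1R Tg vehicle, against 11.4 and 14.1 CPM in WT, so that AC1903 replicate 1 alone stood out. The authors' table called this ID for AT1R Tg AC1903 against AT1R Tg vehicle (log2 fold change 1.98, adjusted p = 0.0165), where it called 0.378% of genes. In edgeR it did not pass (adjusted p = 0.547). Of the class I-like chains, FCGRT, the neonatal Fc receptor, stood at 46.4 and 46.2 CPM in AT1R Tg AC1903, 49.5 and 70.2 CPM in AT1R Tg vehicle, against 45.8 and 40.5 CPM in WT, higher in vehicle than elsewhere. CD1D and MR1, which present lipid and metabolite antigens, overlapped between the AC1903 and WT groups. HFE, a regulator of iron uptake, stood at 9.40 and 8.95 CPM in AT1R Tg AC1903, 12.7 and 5.70 CPM in AT1R Tg vehicle, against 9.58 and 9.71 CPM in WT, a small difference between AC1903 and WT beside the wide vehicle pair.

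Genes of peptide loading outside the set did not share a direction. Of 6 such genes, 2 were above 0 for AT1R Tg AC1903 against AT1R Tg vehicle, with a median of -0.089. LNPEP, the aminopeptidase of cross-presentation, stood at 41.2 and 40.2 CPM in AT1R Tg AC1903, 29.3 and 18.7 CPM in AT1R Tg vehicle, against 27.8 and 15.7 CPM in WT, highest in both AC1903 libraries. TAPBPL stood at 37.9 and 45.6 CPM in AT1R Tg AC1903, 37.4 and 29.1 CPM in AT1R Tg vehicle, against 41.9 and 49.0 CPM in WT. Its vehicle libraries lay below all others, and its AC1903 group overlapped with WT. The chaperone PDIA3, which joins the loading complex with tapasin, stood at 572.7 and 751.8 CPM in AT1R Tg AC1903, 888.4 and 701.5 CPM in AT1R Tg vehicle, against 844.9 and 819.5 CPM in WT. PSME1, a subunit of the interferon-inducible proteasome activator, stood at 146.9 and 124.3 CPM in AT1R Tg AC1903, 109.1 and 132 CPM in AT1R Tg vehicle, against 144.3 and 170 CPM in WT, with AC1903 overlapping the vehicle group.

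The partners through which NLRC5 acts, with CIITA and EZH2, were a list of 10 genes, of which 0 passed in edgeR in any comparison. Their median log2 change was -0.24 in AT1R Tg vehicle relative to WT and 0.074 for AT1R Tg AC1903 against AT1R Tg vehicle. RFX5, the DNA-binding subunit of RFX, stood at 43.9 and 39.0 CPM in AT1R Tg AC1903, 36.5 and 42.2 CPM in AT1R Tg vehicle, against 38.9 and 40.7 CPM in WT, all groups overlapping. NFYA, a subunit of NF-Y, stood at 11.9 and 11.9 CPM in AT1R Tg AC1903, 6.16 and 6.35 CPM in AT1R Tg vehicle, against 8.58 and 6.80 CPM in WT, without overlap and in the order of NLRC5. CIITA was low, at 1.33 and 3.84 CPM in AT1R Tg AC1903, 0.283 and 2.44 CPM in AT1R Tg vehicle, against 1.54 and 2.79 CPM in WT, with all groups overlapping.

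Of MHC class II genes, none of the 12 IDs passed in edgeR in any comparison. CD74, the invariant chain, stood at 220 and 213.7 CPM in AT1R Tg AC1903, 199.3 and 254.5 CPM in AT1R Tg vehicle, against 164.4 and 208.2 CPM in WT, so that both AC1903 libraries lay above WT while the vehicle group overlapped with each. The list's median log2 change was 0.22 for AT1R Tg AC1903 against AT1R Tg vehicle and 0.12 for AT1R Tg vehicle against WT. One ID of HLA-DMB stood at 10.5 and 0 CPM and the other at 10.5 and 36.9 CPM in AT1R Tg AC1903, and such copies between which reads can be divided are uncertain.

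Of 16 genes of the interferon gamma pathway, 11 had a log2 change below 0 in AT1R Tg vehicle relative to WT and 13 one above 0 for AT1R Tg AC1903 against AT1R Tg vehicle, with medians of -0.24 and 0.42, and 0 passed in edgeR or in DESeq2. For AT1R Tg AC1903 against AT1R Tg vehicle, 5 of them were higher and 1 lower at an unadjusted p under 0.05, where 8.12% of all genes were in either direction. The same held for 2 of the 10 partner genes and 0 of the 12 class II IDs, and DESeq2 called none of these. GBP2, an interferon-induced GTPase, stood at 63.3 and 77.5 CPM in AT1R Tg AC1903, 32.7 and 40.5 CPM in AT1R Tg vehicle, against 45.7 and 64.3 CPM in WT. The chemokine CXCL10 was lower in AC1903 than in vehicle, with 4.99 and 6.08 CPM in AT1R Tg AC1903, 10.1 and 8.55 CPM in AT1R Tg vehicle, against 6.85 and 8.86 CPM in WT. Of 17 tested IDs of the type I interferon response, 16 were below 0 in AT1R Tg vehicle relative to WT and 14 were below 0 for AT1R Tg AC1903 against WT, with medians of -0.56 and -0.21. For AT1R Tg AC1903 against AT1R Tg vehicle 14 of them were above 0, with a median of 0.29.

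Among other NOD-like receptor genes, NOD1, a sensor of bacterial peptidoglycan, stood at 106.1 and 89.9 CPM in AT1R Tg AC1903, 75.4 and 70.3 CPM in AT1R Tg vehicle, against 102 and 130.4 CPM in WT. NLRP1, an inflammasome sensor, stood at 30.9 and 23.3 CPM in AT1R Tg AC1903, 14.3 and 17.4 CPM in AT1R Tg vehicle, against 25.8 and 20.3 CPM in WT. Both were lowest in the vehicle group, and AC1903 overlapped with WT. Of the 10 IDs of this list, 9 had a log2 change above 0 for AT1R Tg AC1903 against AT1R Tg vehicle, and 0 passed in that comparison in edgeR or in DESeq2. For AT1R Tg vehicle against WT, DESeq2 called 1 of them, lower in vehicle, against 4.13% of all genes in either direction. The AC1903 libraries lay wholly above WT for NLRP3, NLRC3 and both NAIP IDs, against 24.2% of all genes, and NAIP reads can be divided between these copies. NLRX1, a mitochondrial member of the family, stayed between 20.9 and 24.9 CPM in all 6 libraries.

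Markers of leukocytes and of the glomerular endothelium were read beside these genes. Fewer cells of a type and less RNA per cell cannot be told apart in such tissue. Of 10 pan-leukocyte markers, all were above 0 for AT1R Tg AC1903 against AT1R Tg vehicle, with a median log2 change of 1.43, and all were below 0 for AT1R Tg vehicle against WT, with a median of -0.44, while 0 passed in edgeR. For AT1R Tg AC1903 against AT1R Tg vehicle, all 10 had no overlap between the groups, against 19.9% of all genes, 9 were below 0.05 before adjustment, against 8.12%, and DESeq2 called 3, against 0.499%. Of the 15 macrophage and monocyte markers, 8 were below 0.05 before adjustment in that comparison and DESeq2 called 2. The 10 pan-leukocyte markers summed to 440.4 and 609.3 CPM in AT1R Tg AC1903, 278 and 301.2 CPM in AT1R Tg vehicle, against 327.1 and 399.9 CPM in WT. Much of that sum was CD48, at 251 and 209.3 CPM in AT1R Tg AC1903, 194.6 and 185 CPM in AT1R Tg vehicle, against 213.6 and 240.3 CPM in WT. PTPRC, the leukocyte antigen CD45, stood at 33.9 and 56.9 CPM in AT1R Tg AC1903, 12.7 and 14.2 CPM in AT1R Tg vehicle, against 16.7 and 19.8 CPM in WT. The 15 macrophage and monocyte markers summed to 425.5 and 987.4 CPM in AT1R Tg AC1903, 265.2 and 346 CPM in AT1R Tg vehicle, against 286 and 479.6 CPM in WT. Much of this sum was LYZ, at 215.3 and 661.1 CPM in AT1R Tg AC1903, 139 and 187.6 CPM in AT1R Tg vehicle, against 156.8 and 267.4 CPM in WT. The 10 lymphocyte and NK markers summed to 34.9 and 42.1 CPM in AT1R Tg AC1903, 15.5 and 16.5 CPM in AT1R Tg vehicle, against 19.3 and 28.0 CPM in WT. No macrophage or pan-leukocyte marker was at a count of 0 in any library, while the B-cell genes CD79A and CD79B and the cytotoxic gene GZMB each were in at least 1. Of the 16 endothelial IDs, 15 were below 0 in AT1R Tg vehicle relative to WT, with a median of -0.34, and 12 were above 0 in AT1R Tg AC1903 relative to AT1R Tg vehicle, with a median of 0.22.

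The 2 AC1903 libraries ranked differently for leukocyte markers and for part of the members. The pan-leukocyte mean was 1.36 log2 units above the WT mean in AC1903 replicate 2 and 0.42 above it in AC1903 replicate 1, while NLRC5, PSMB8, PSMB9 and B2M were higher in replicate 1 and the other 5 members in replicate 2. Per unit of PTPRC, with the WT mean set to 1, NLRC5 was at 1.15 and 0.617 in AT1R Tg AC1903, 0.541 and 0.616 in AT1R Tg vehicle, against 0.956 and 1.04 in WT. B2M per PTPRC was at 0.867 and 0.465 in AT1R Tg AC1903, 1.16 and 1.12 in AT1R Tg vehicle, against 0.986 and 1.01 in WT. On this scale the AC1903 group was the lowest, also for PSMB9, PSMB10 and TAP1. PSMB8 per PTPRC was at 1.19 and 0.450 in AT1R Tg AC1903, 0.866 and 1.08 in AT1R Tg vehicle, against 0.856 and 1.14 in WT. For AT1R Tg AC1903 against AT1R Tg vehicle the fitted level was 3.37-fold for PTPRC and 1.82-fold for B2M, so the ratio falls through its denominator. The mean macrophage marker level, itself highest in both AC1903 libraries, was also set as a covariate. The log2 change for AT1R Tg AC1903 against AT1R Tg vehicle was then 1.98 for NLRC5, 1.12 for PSMB8 and 0.74 for B2M. It was 0.52 for PSMB9, 0.38 for PSMB10, 0.31 for ERAP1, 0.15 for TAPBP, 0.12 for TAP2 and -0.0025 for TAP1. None of the 8 presentation genes passed in edgeR in that fit (adjusted p of 0.9944 or above). The median of the 8 was then 0.35, against 0.72 without the covariate. Beyond these values the part of the leukocyte markers in the differences was not tested.

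**Figure D5:**
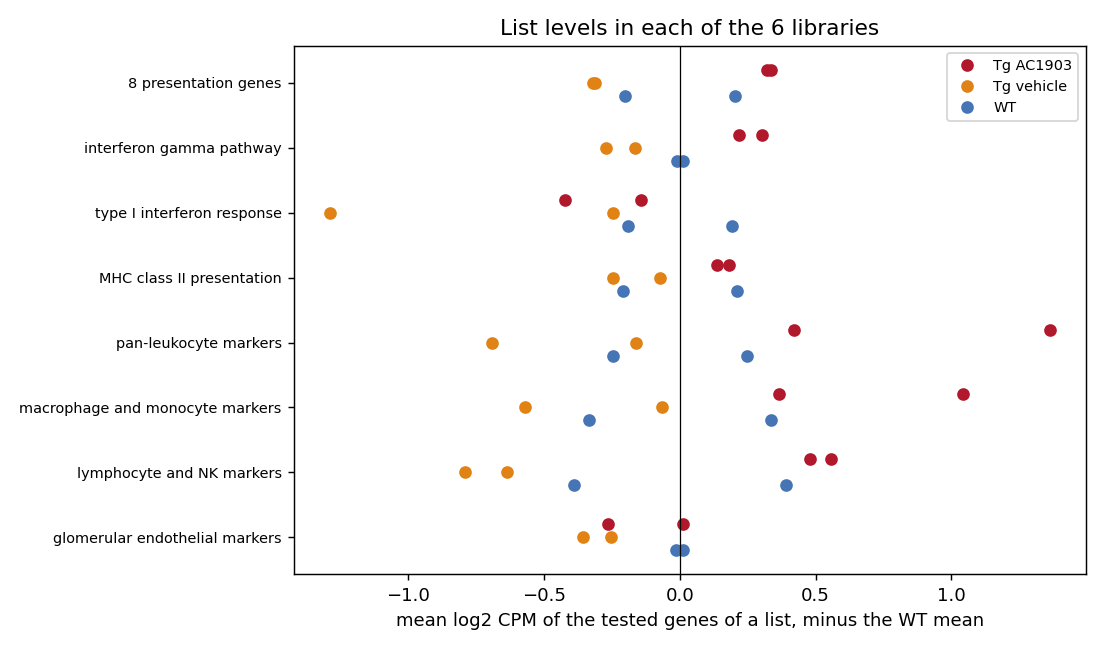
Mean log2 CPM of the tested genes of each list, minus the WT mean (horizontal axis), in each of the 6 libraries, with AT1R Tg AC1903 above AT1R Tg vehicle above WT in each row. The 8 presentation genes lie at 0.34 and 0.32 in AC1903, -0.31 and -0.32 in vehicle and -0.20 and 0.20 in WT, and the 2 AC1903 libraries lie farther apart for the pan-leukocyte and macrophage lists, at 0.42 and 1.36 for the first.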

How the data were processed

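Glomerular mRNA of 6 rats in 3 groups of 2 was prepared with a stranded kit, per the labels' protocols. The authors deposited expected counts per Ensembl gene, and the submitters' processing notes name STAR 2.5.2b, RSEM 1.3.0 and the build Rnor_5.0. Tables of log2 fold changes and adjusted p-values were deposited too, and the sources used here do not name their tool or the annotation release. Symbols are the human ones in those tables, which cover 12321 of the IDs.

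Expected counts were rounded, filtered with filterByExpr by group (13426 genes left), TMM-scaled (trimmed mean of M values) and tested with edgeR 4.0.16 (quasi-likelihood, two-sided, all 6 libraries, 3 residual degrees of freedom) in R 4.3.3. P-values were adjusted by Benjamini-Hochberg across the whole table and called under 0.05. DESeq2 1.42.0 was an alternative. CPM are TMM-normalised, with a prior count of 2 on the log2 scale. With 2 libraries against 2, no permutation test can give a p under 0.3333. The samples of a group are different rats by age, and p-values measure the spread between them only.

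The members, gene lists and tests were chosen with earlier results of these data known. The named genes are the 9 members, class I chains, members of the fixed lists by smallest p, the constitutive counterparts of the immunosubunits and the 10 genes most like NLRC5; the text gives part of them. RFX5, CIITA, PSME1, CD74, FCGRT, NLRX1 and CXCL10 are given outside that rule, for their role. Chi-square per degree of freedom between the 2 libraries of a group was 19.0 to 92.8, so none was counted as a duplicate. Some genes of the fixed lists are not reported here.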

Additional observations from a re-analysis of the deposited data

How the results depend on the processing

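The count of genes called depended on the tool and filter. For AT1R Tg vehicle against WT edgeR called 10 genes in the reported fit, 554 with DESeq2 in its place, 774 with no filter on low counts, 4 with only the 2 groups compared, 4 with age as a covariate, 2 with the macrophage level as a covariate and 1 to 530 with each library left out. For AT1R Tg AC1903 against AT1R Tg vehicle the count was 0 in the reported fit, 67 with DESeq2, 114 with no filter, 1 with age, 2 with the macrophage level and 0 to 4 with each library left out. For AT1R Tg AC1903 against WT it was 5 in the reported fit, 181 with DESeq2, 464 with no filter, 21 with only the 2 groups and 1 to 25 with each library left out. The causes were not tested.

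The median of the 8 genes ran from -0.5066 to -0.1075 with each library left out for AT1R Tg vehicle against WT, from 0.5983 to 0.7421 for AT1R Tg AC1903 against AT1R Tg vehicle and from 0.08701 to 0.6455 for AT1R Tg AC1903 against WT; the outermost values of the first and last came from leaving out a WT library. With the macrophage level it was 0.345 for AT1R Tg AC1903 against AT1R Tg vehicle and 0.04002 against WT.

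The sign turned for TAPBP, TAP1, TAP2 and ERAP1 under some alternatives, and for TAP1 the reported change for AT1R Tg AC1903 was 0.63 against AT1R Tg vehicle and 0.33 against WT. TAPBP stood at 0.01384 with age, and between -0.4765 and 0.08184 with each library left out, for AT1R Tg vehicle against WT. It stood at -0.1038 with age, and between -0.1433 and 0.4173 with each library left out, for AT1R Tg AC1903 against AT1R Tg vehicle. TAP1 ran from -0.5548 to 0.0259 with each library left out for AT1R Tg vehicle against WT, and with the macrophage level it was -0.002537 for AT1R Tg AC1903 against AT1R Tg vehicle and -0.07415 against WT. For AT1R Tg AC1903 against WT, TAP2 was -0.01651 with no filter, -0.001993 with only the 2 groups, -0.01806 with age, -0.1101 with the macrophage level and -0.1659 to 0.1838 with each library left out. ERAP1 was -0.007756 with no filter, -0.01225 with age and -0.0333 to 0.03692 with each library left out, and TAPBP ran from -0.1593 to 0.0499. NLRC5, PSMB8, PSMB9, PSMB10 and B2M kept their sign under every alternative run.

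The replicate numbers are shared by the groups, but same-numbered libraries did not deviate together (correlations of -0.0409 to 0.00458). With the replicate block edgeR called 4 genes for AT1R Tg vehicle against WT, 2 for AT1R Tg AC1903 against AT1R Tg vehicle and 7 for AT1R Tg AC1903 against WT, and no member's sign turned. The effect of depth, lower in the transgenic libraries, was not tested.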
